A study of Homo sapiens with 8 samples.

Results

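S100 proteins are small calcium-binding proteins, and 8 of their genes (*S100A2*, *S100A3*, *S100A4*, *S100A6*, *S100A10*, *S100A11*, *S100A13* and *S100A16*) were followed here in mRNA sequencing of a pancreatic cancer cell line depleted of PHF13. They were taken by name from the 13307 genes of the deposited table. The study asked how PHF13, a PHD finger protein that reads trimethylated H3K4, takes part in the epithelial to mesenchymal transition (EMT) that TGFβ drives. Cells of Panc-1 (PANC-1 in the labels), an established line from a carcinoma of the human pancreatic duct, were transfected with control siRNA (siControl) or with siRNA against *PHF13* (siPHF13). From the following day they were kept without TGFβ, or with 10 ng/ml TGFβ for 48 h (siControl_TGFβ and siPHF13_TGFβ). Each of the 4 groups has 2 libraries, described as duplicates and not as separate cultures, so that the p-values measure the spread between these libraries only. All groups are 1 line that went through transfection, siPHF13 lowers PHF13 and does not remove it, and bulk RNA cannot tell fewer expressing cells from less RNA per cell.

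An S100 protein holds a pair of EF-hands, helix-loop-helix motifs that bind calcium, and works mostly as a dimer. On binding calcium it opens a surface that grips a partner, such as an annexin, a myosin heavy chain or p53, and some members are also released and act on receptors such as RAGE and TLR4. Most of the human genes form a cluster in the epidermal differentiation region of chromosome 1, and several, *S100A4* and *S100A2* among them, have been studied as markers of motility and outcome in pancreatic tumours.

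The values are normalized counts, the reads on a gene divided by a size factor of its library. Between 39196214 and 46700806 reads per library fell on the listed genes. *PHF13* itself was at 1804 and 1662 normalized counts in siControl, 524 and 558 in siPHF13, 1586 and 1709 in siControl_TGFβ, and 513 and 529 in siPHF13_TGFβ, which fits the labels. Of the markers fixed for pancreatic duct epithelium 5 of 5 were in the table, with sums of 171764 to 203975 without TGFβ and 121692 to 150094 with it. Of other cell types, 1 of 5 acinar (*CEL*), 0 of 4 islet, 1 of 5 fibroblast (*COL1A1*), 1 of 5 keratinocyte (*KRT10*), 2 of 4 melanocyte or nerve sheath (*MLANA* and *PMEL*) and 2 of 5 leukocyte markers (*CD68* and *CD14*) were listed, and the leukocyte genes *PTPRC*, *LYZ* and *CD3E* were not.

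All 8 genes lie on the minus strand of chromosome 1 (GRCh37), each with 3 exons in its canonical transcript. *S100A10* (151955391 to 151966335) and *S100A11* (152004982 to 152020383) are neighbours. The other 6 follow farther along, in the order *S100A6* (153507075 to 153508720), *S100A4* (153516089 to 153522612), *S100A3* (153519805 to 153521734), *S100A2* (153533584 to 153540366), *S100A16* (153579362 to 153585621) and *S100A13* (153591263 to 153603836). *S100A3* lies within the span of *S100A4* on the same strand, and the annotated exons of the pair share 0 bases. *S100A13* shares 235 exon bases with *S100A1* on the other strand, and since the strand setting of the counting is not given in the sources used here, reads there cannot be told apart. *S100A13* also shares 536 of its 2216 exon bases with a long noncoding RNA gene on the same strand. No strand setting separates the reads there. For *S100A11* 8 genes named as its pseudogenes are annotated in the genome, so that its counts are less certain. For the other members 0 are named so, and copies under other names were not searched.

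The 250 bases before the start site are shown for the members that crossed both test thresholds below (*S100A10*, which fell, and *S100A2*, *S100A3* and *S100A4*, which rose), to let a reader compare the promoters of genes that moved in opposite directions. *S100A13* also rose, but its window holds an annotated exon and is not printed. The sequences are from RefSeq and were placed on GRCh37 by an exact match, 5′ to 3′ on the minus strand, at chr1:151966336-151966585 (*S100A10*), chr1:153538321-153538570 (*S100A2*), chr1:153521735-153521984 (*S100A3*) and chr1:153518283-153518532 (*S100A4*). Capitals mark matches on either strand to 4 motifs. The TATA box was searched as TATAAA. The GC box was searched as GGGCGG. The SMAD motif was searched as CAGAC, and the AP-1 motif as TGANTCA, which reads the same on both strands.
S100A10: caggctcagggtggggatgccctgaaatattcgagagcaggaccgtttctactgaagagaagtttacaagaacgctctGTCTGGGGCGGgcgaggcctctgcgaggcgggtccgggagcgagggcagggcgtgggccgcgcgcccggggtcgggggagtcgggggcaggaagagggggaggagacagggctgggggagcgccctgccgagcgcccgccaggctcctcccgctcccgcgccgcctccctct
S100A2: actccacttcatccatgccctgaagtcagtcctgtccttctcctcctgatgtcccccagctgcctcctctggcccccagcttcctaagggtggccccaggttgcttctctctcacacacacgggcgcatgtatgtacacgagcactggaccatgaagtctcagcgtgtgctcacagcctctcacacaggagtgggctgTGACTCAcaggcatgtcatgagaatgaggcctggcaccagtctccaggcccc
S100A3: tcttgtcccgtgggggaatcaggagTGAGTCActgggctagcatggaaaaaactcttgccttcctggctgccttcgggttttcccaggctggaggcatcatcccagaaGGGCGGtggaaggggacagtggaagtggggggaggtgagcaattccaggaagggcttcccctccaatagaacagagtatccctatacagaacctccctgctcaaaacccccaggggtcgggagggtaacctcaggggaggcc
S100A4: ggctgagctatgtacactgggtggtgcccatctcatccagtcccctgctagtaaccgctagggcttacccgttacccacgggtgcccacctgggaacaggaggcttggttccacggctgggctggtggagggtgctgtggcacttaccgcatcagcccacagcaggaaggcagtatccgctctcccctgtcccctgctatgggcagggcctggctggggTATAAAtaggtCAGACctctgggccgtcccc

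The *S100A10* window was 71.2% G and C, against 59.2% for *S100A2*, 58.4% for *S100A3* and 62.8% for *S100A4*. It holds 1 GC box, starting 167 bases before the start site, next to 1 SMAD motif on the opposite strand at 172 bases. *S100A4* has a TATA box 31 bases before its start and a SMAD motif at 20 bases. The window of *S100A13*, not printed, also holds a TATA box, at 29 bases, and a SMAD motif, at 146 bases. *S100A2* and *S100A3* each hold 1 AP-1 motif, at 52 and 225 bases, and *S100A3* also holds a GC box at 142 bases. The makeup of the *S100A10* window is not particular to it. Among members that did not cross both thresholds, the *S100A11* window (63.6% G and C) also held 1 GC box and 1 SMAD motif. That of *S100A6* (70.0%) held 3 GC boxes and no SMAD motif, and that of *S100A16* (57.2%) no GC box and 1 SMAD motif. The windows of *S100A6* and *S100A16*, like that of *S100A13*, hold annotated exon bases. Among 35116 promoter windows of the same length, 10.7% held the TATA box, 42.6% the GC box, 38.0% the SMAD motif and 6.57% the AP-1 motif. These matches describe letters only; binding was not measured here.

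Per kilobase of canonical transcript, *S100A6* (calcyclin) had the highest mean over the 8 libraries, 60244 normalized counts per kb, with libraries from 45580 to 71761. *S100A11* followed at 38884 (33567 to 46380), then *S100A10* at 24716 (15699 to 34931) and *S100A4* at 20471 (12452 to 28820). *S100A16* stood at 6276 (5465 to 7165), *S100A13* at 3267 (2330 to 4478), *S100A3* at 1390 (987 to 1666) and *S100A2* at 303 (198 to 462). On this scale the ranges of neighbours among the 4 most abundant members overlap, while those of the other 4 members do not overlap each other or the rest. Reads were counted over exons of the gene, and all its annotated exons cover more bases than the canonical transcript. They cover 971 bases against 434 for *S100A6*, 649 against 563 for *S100A11*, 2216 against 477 for *S100A13* and 841 against 742 for *S100A3*. The order therefore depends on the length chosen. Together the 8 genes took 0.185% to 0.216% of the normalized counts of a library.

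**Figure D1:**
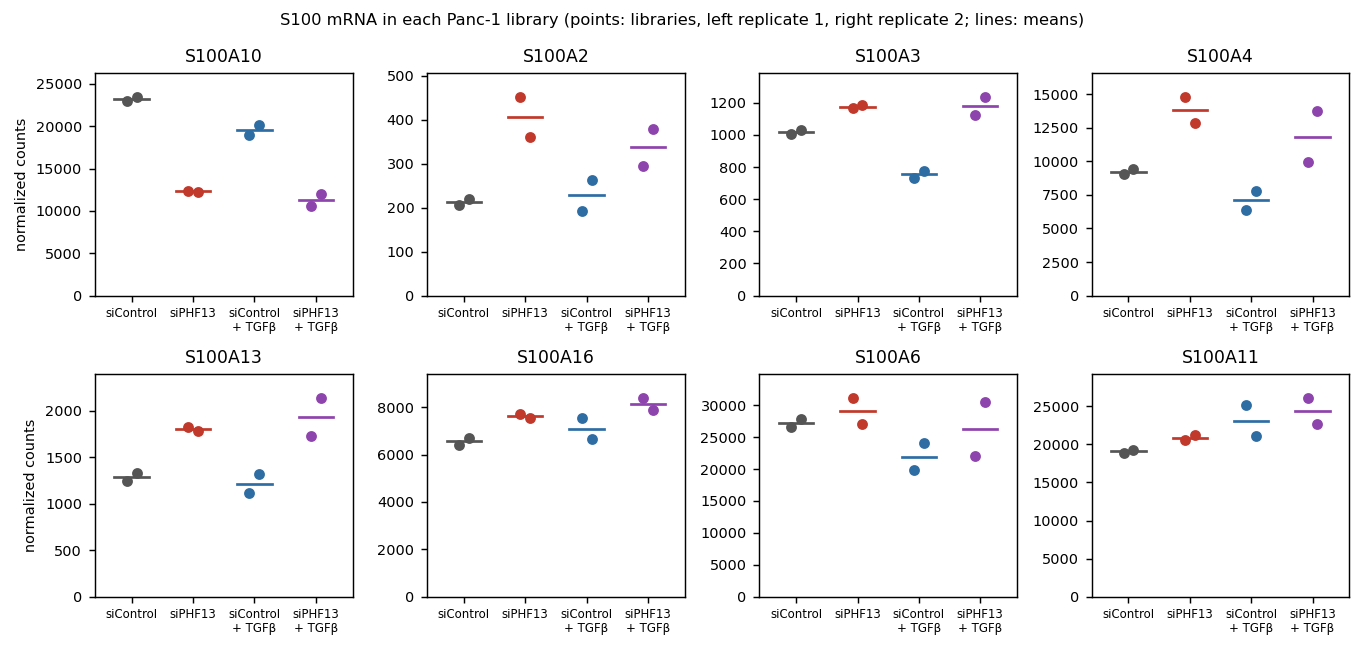
Normalized counts (vertical axis, from 0) of the 8 S100 genes in the 4 groups (horizontal axis). Points are single libraries, replicate 1 on the left and replicate 2 on the right, and lines are means of 2. Both siPHF13 groups lie below both siControl groups for *S100A10*. They lie above them for *S100A2*, *S100A3*, *S100A4*, *S100A13* and, narrowly, *S100A16*. The share of all genes separated in this way is not given here. For *S100A6* and *S100A11* the depleted libraries, taken over both settings, overlap the controls.

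On PHF13 depletion without TGFβ, *S100A10* fell to 0.530 of its siControl level and *S100A2* rose 1.90-fold. *S100A4*, *S100A13* and *S100A16* were higher by less than the fold threshold, and *S100A3*, *S100A6* and *S100A11* missed the adjusted p. A gene was called where the limma test gave a Benjamini-Hochberg adjusted p under 0.05 over the 13307 genes and an absolute log2 fold change over 0.58. By this rule 1 of the 8 genes rose and 1 fell (18.4% of all genes were called, 7.95% higher and 10.4% lower). By the adjusted p alone, 4 were higher (23.1% of all genes) and 1 was lower (24.3%). The median log2 fold change of the 8 genes was 0.21, and that of all genes was -0.00094.

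*S100A10* (p11) differs from its relatives in that its EF-hands no longer bind calcium. It is held with annexin A2 in a complex under the cell membrane that brings plasminogen to the cell surface. It was at 22983 and 23439 normalized counts in siControl and at 12398 and 12192 in siPHF13. In the TGFβ-treated groups it was at 19000 and 20145 in siControl_TGFβ and at 10534 and 11984 in siPHF13_TGFβ. All 4 depleted libraries were lower than all 4 controls. The share of all genes separated by depletion in this way is not given, here or for the genes below. The log2 fold change was -0.92 ± 0.07 (SE, n = 2 libraries per group) without TGFβ (limma, adjusted p = 1.63e-07) and -0.80 ± 0.07 with it (adjusted p = 4.75e-07). The call held in both comparisons under every alternative run, with log2 fold changes of -1.01 and -0.99 when every library was corrected for the GC content and length of transcripts.

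*S100A2* is a mostly nuclear member of squamous and ductal epithelium that binds p53. It was the least abundant of the 8, with 206 and 219 normalized counts in siControl and 452 and 361 in siPHF13. In siControl_TGFβ it was at 193 and 263, and in siPHF13_TGFβ at 295 and 379. The depleted libraries were higher than their controls in both settings. Without TGFβ the log2 fold change was 0.92 ± 0.18 (SE, n = 2; limma, adjusted p = 0.00101). With TGFβ it was 0.57 ± 0.18 (adjusted p = 0.0203), under the fold threshold. It crossed that threshold without siControl_TGFβ replicate 2 (0.79) or without siPHF13_TGFβ replicate 1 (0.75), and it missed the adjusted p without siControl_TGFβ replicate 1 (0.34, adjusted p = 0.204), without siPHF13_TGFβ replicate 2 (0.39, adjusted p = 0.155) and after the GC and length correction (0.39, adjusted p = 0.0705).

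In TGFβ-treated cells depletion raised *S100A3*, *S100A4* and *S100A13* and lowered *S100A10*. Thus 3 of the 8 genes rose and 1 fell (20.5% of all genes were called, 8.81% higher and 11.7% lower). By the adjusted p alone 5 were higher (24.5% of all genes) and 1 was lower (25.9%). The median of the 8 genes was 0.41, and that of all genes was 0.0034. Both depletion comparisons have controls of their own, but each of these control groups also enters the TGFβ comparison below.

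*S100A4* (metastasin, or fibroblast-specific protein) binds the heavy chain of non-muscle myosin IIA and is a common marker of mesenchymal cells. Its libraries held 9081 and 9395 normalized counts in siControl and 14784 and 12888 in siPHF13. With TGFβ they held 6388 and 7795 in siControl_TGFβ and 9939 and 13742 in siPHF13_TGFβ. The lowest depleted library was above the highest control. The log2 fold change with TGFβ was 0.73 ± 0.12 (SE, n = 2; limma, adjusted p = 0.000275). Without TGFβ it was 0.58 ± 0.12 (adjusted p = 0.00172), just under the threshold of 0.58 before rounding. In that comparison the gene was called with edgeR (0.587, adjusted p = 0.00143) and DESeq2 (0.583, adjusted p = 0.0119) on recovered reads, without siControl replicate 2 (0.60) and without siPHF13 replicate 2 (0.68).

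*S100A13* helps to carry FGF1 and interleukin 1α out of the cell by a route that avoids the secretory pathway. It was at 1240 and 1333 normalized counts in siControl, 1819 and 1780 in siPHF13, 1112 and 1320 in siControl_TGFβ, and 1727 and 2136 in siPHF13_TGFβ. As for *S100A4*, every depleted library was above every control. The log2 fold change was 0.48 ± 0.11 (SE, n = 2) without TGFβ (limma, adjusted p = 0.00215), under the fold threshold, and 0.66 ± 0.11 with TGFβ (adjusted p = 0.000171).

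*S100A3* is a cysteine-rich, zinc-binding member best known from the hair cuticle. It was at 1003 and 1028 normalized counts in siControl, 1167 and 1187 in siPHF13, 732 and 779 in siControl_TGFβ, and 1122 and 1236 in siPHF13_TGFβ. The lowest values were in siControl_TGFβ, and both depleted groups overlapped each other. The log2 fold change on depletion was 0.21 ± 0.09 (SE, n = 2) without TGFβ and 0.64 ± 0.09 with it. By limma the adjusted p was 0.0663 for the former (0.0318 in a fit restricted to the libraries compared) and 4.90e-05 for the latter. Without either siPHF13_TGFβ library the adjusted p of the former was 0.0473 or 0.0482.

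The calls of *S100A3*, *S100A4* and *S100A13* with TGFβ rest on the fold threshold. Without siPHF13_TGFβ replicate 2 their log2 fold changes were 0.57, 0.49 and 0.51, so that only *S100A10* of the 8 genes was called, and without siControl_TGFβ replicate 1 that of *S100A13* was 0.54. After the GC and length correction the values were 0.40, 0.48 and 0.40, with adjusted p of 0.00113, 0.000205 and 0.00141 by limma. Canonical transcripts of the 8 genes ranged from 434 to 1172 bases, and *S100A10* had the lowest GC content (47.5%) and *S100A3* the highest (58.6%). The part of transcript composition in these changes was not tested beyond this correction.

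**Figure D2:**
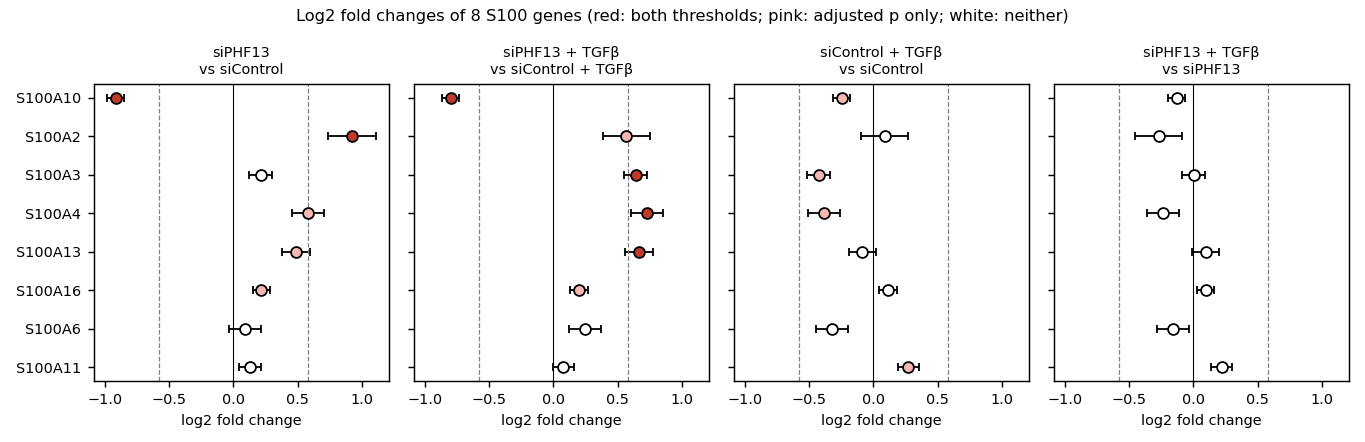
Log2 fold changes (horizontal axis) of the 8 S100 genes in 4 comparisons, with bars for the standard error of the limma fit and dashed lines at 0.58 on either side of 0. Red points passed both thresholds, pink points the adjusted p only and white points neither; red points appear only in the depletion comparisons, with 2 genes without TGFβ and 4 with it.

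The remaining 3 members were not called in any comparison. *S100A16*, a widely expressed member, was at 6405 and 6716 normalized counts in siControl, 7706 and 7547 in siPHF13, 7537 and 6647 in siControl_TGFβ, and 8398 and 7886 in siPHF13_TGFβ. Depletion gave log2 fold changes of 0.22 ± 0.07 (SE, n = 2; limma, adjusted p = 0.0191) and 0.20 ± 0.07 with TGFβ (adjusted p = 0.0265), and after the GC and length correction 0.10 (adjusted p = 0.216) and 0.02 (adjusted p = 0.789). Without TGFβ the adjusted p was above 0.05, from 0.0568 to 0.157, when any 1 of the 4 libraries compared was left out. With TGFβ it was 0.262 without siControl_TGFβ replicate 2 and 0.0935 without siPHF13_TGFβ replicate 1, and 0.0702 with TMM factors.

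*S100A6*, which binds the ubiquitin ligase adaptor CACYBP, was at 26631 and 27923 normalized counts in siControl, 31144 and 27023 in siPHF13, 19782 and 24116 in siControl_TGFβ, and 22088 and 30460 in siPHF13_TGFβ. The groups on either side of depletion overlapped, and the log2 fold changes were 0.09 (95% interval -0.18 to 0.36) and, with TGFβ, 0.25 (-0.02 to 0.52). The latter was 0.48 without siPHF13_TGFβ replicate 1 (adjusted p = 0.000526) and 0.39 without siControl_TGFβ replicate 2 (adjusted p = 0.0496). *S100A11*, a partner of annexin A1, was at 18898 and 19322 in siControl, 20650 and 21181 in siPHF13, 25251 and 21053 in siControl_TGFβ, and 26112 and 22668 in siPHF13_TGFβ. Its log2 fold changes on depletion were 0.13 (-0.05 to 0.31) and 0.08 (-0.10 to 0.26). Without TGFβ its limma adjusted p was 0.220, and 0.0126 in a fit restricted to the libraries compared. The intervals of *S100A6* and *S100A11* do not show that either gene stayed the same.

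The makeup of the S100 mRNA differed between control and depleted libraries. *S100A10* made up 26.6% and 26.2% of the normalized counts of the 8 genes in siControl and 13.8% and 14.5% in siPHF13. With TGFβ it made up 23.8% and 24.5% in siControl_TGFβ and 13.1% and 13.2% in siPHF13_TGFβ. The count of *S100A4* relative to that of *S100A10* was 0.395 and 0.401 in siControl, 0.336 and 0.387 in siControl_TGFβ, 1.19 and 1.06 in siPHF13, and 0.944 and 1.15 in siPHF13_TGFβ. This ratio within a library does not depend on the size factor. The summed counts of the 8 genes ranged from 79994 to 89376 in the controls and from 80215 to 90490 in the depleted libraries.

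TGFβ alone called 0 of the 8 genes by limma (4.79% of all genes were called). At an unadjusted p under 0.05 there were 5. The share of all genes at that unadjusted p is not given, here or in the comparisons that follow. By the adjusted p alone 1 was higher (9.21% of all genes) and 3 were lower (6.67%), and the median of the 8 was -0.17 (all genes -0.01). *S100A3* was at -0.43 ± 0.09 (SE, n = 2; limma, adjusted p = 0.00480), *S100A4* at -0.39 ± 0.12 (adjusted p = 0.0495), *S100A10* at -0.25 ± 0.07 (adjusted p = 0.0221) and *S100A11* at 0.27 ± 0.08 (adjusted p = 0.0419). For these 4 genes and *S100A6* the treated libraries did not overlap the untreated ones, as for 60.2% of all genes. Each of the 4 missed the adjusted p when some single libraries were left out. For *S100A3* it was 0.0629 without siControl replicate 2 and 0.0511 without siControl_TGFβ replicate 1. For *S100A10* it was 0.129 and 0.184 without siControl replicates 1 and 2, and 0.169 without siControl_TGFβ replicate 1. For *S100A4* and *S100A11* it was up to 0.382 and 0.391 (both without siControl_TGFβ replicate 1) and above 0.05 also without either siControl or either siPHF13 library. *S100A4* also missed it with TMM factors (0.0726), edgeR (0.0524) and DESeq2 (0.219). *S100A6* stood at -0.32 ± 0.12 (adjusted p = 0.103, and 0.00255 in a fit restricted to the libraries compared), *S100A16* at 0.11, *S100A2* at 0.09 and *S100A13* at -0.09.

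In PHF13-depleted cells TGFβ called 0 of the 8 genes as well (1.35% of all genes), and 0 passed the adjusted p (3.07% of all genes). At an unadjusted p under 0.05 there was 1, *S100A11*, at 0.22 ± 0.08 (SE, n = 2; limma, adjusted p = 0.235). The other log2 fold changes lay between -0.27 (*S100A2*) and 0.09 (*S100A13* and *S100A16*). Without siPHF13_TGFβ replicate 2, the adjusted p was passed by *S100A4* (-0.47, adjusted p = 0.00747), *S100A6* (-0.39, 0.0246), *S100A10* (-0.22, 0.0427) and *S100A11* (0.32, 0.0298).

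The interaction, which is the effect of depletion with TGFβ minus that without it, called 0 of the 8 genes (0.308% of all genes) and 0 by the adjusted p (0.413%). *S100A3* had the largest value, 0.43 ± 0.13 (limma, adjusted p = 0.225), and was the only member at an unadjusted p under 0.05. A different effect of depletion in the presence of TGFβ was thus not shown for any of the 8 genes, including those called only with TGFβ. edgeR and DESeq2 also called 0 members in these 3 comparisons.

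The replicates of the TGFβ-treated groups differed in a shared pattern, which the untreated groups did not show. In siControl replicate 2 was above replicate 1 for every member. In siPHF13 it was above for *S100A3* and *S100A11* and below for the rest. In both TGFβ-treated groups replicate 2 was above replicate 1 for *S100A2*, *S100A3*, *S100A4*, *S100A6*, *S100A10* and *S100A13* and below it for *S100A11* and *S100A16*. The gap was largest in siPHF13_TGFβ for *S100A4* (0.47 on the log2 scale) and *S100A6* (0.46). Over the 8 libraries *S100A4* correlated with *S100A3* (Pearson r = 0.92), *S100A13* (0.90), *S100A2* (0.90) and *S100A6* (0.84), *S100A11* with *S100A16* (0.79), and *S100A10* with *S100A16* (-0.91) and *S100A13* (-0.86). These describe points that share groups, libraries and size factors.

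Outside the family, the genes whose log2 levels followed a member most closely over the 8 libraries (mean of at least 100 normalized counts) were *HNRNPA3*, *DARS* and *TMBIM4* for *S100A10* (Pearson r = 0.999, 0.998 and 0.997) and *TOMM70A*, *APMAP* and *EIF4A3* for *S100A4* (0.994, 0.994 and 0.992). For *S100A3* they were *KIF2C*, *E2F1* and *NUP107* (0.992, 0.989 and 0.988), for *S100A13* *EIF1AX*, *ATG10* and *RPL39* (0.993, 0.991 and 0.990), and for *S100A2* *GNPNAT1*, *EIF4E2* and *SS18L1* (0.986, 0.985 and 0.985). They are the highest over the whole table, from libraries in 4 groups, and carry no test.

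Of 21 S100 family genes 11 were in the table, and the 3 besides the members were low. *S100A5* was at 17.1 and 25.2 normalized counts in siControl, 42.8 and 61.2 in siPHF13, 6.47 and 16.5 in siControl_TGFβ, and 23.7 and 42.3 in siPHF13_TGFβ, and rose on depletion with TGFβ present (log2 fold change 1.52 ± 0.52, SE, n = 2; limma, adjusted p = 0.0251). This call was lost without siControl_TGFβ replicate 1 (adjusted p = 0.199) and without siPHF13_TGFβ replicate 2 (adjusted p = 0.172), and TGFβ in siControl gave -0.93 (adjusted p = 0.265). *S100A1* ranged from 55.9 to 93.5 and *S100P*, a marker of pancreatic ductal cancer, from 11.5 to 47.8, and neither was called. Of the fused-type S100 genes, large relatives with an S100 domain at the start of a structural repeat protein, 4 of 7 were in the table, and only *TCHH* was called, lower with TGFβ (-1.17; adjusted p = 0.0567 without siControl replicate 2) and higher on depletion in its presence (1.09).

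**Figure D3:**
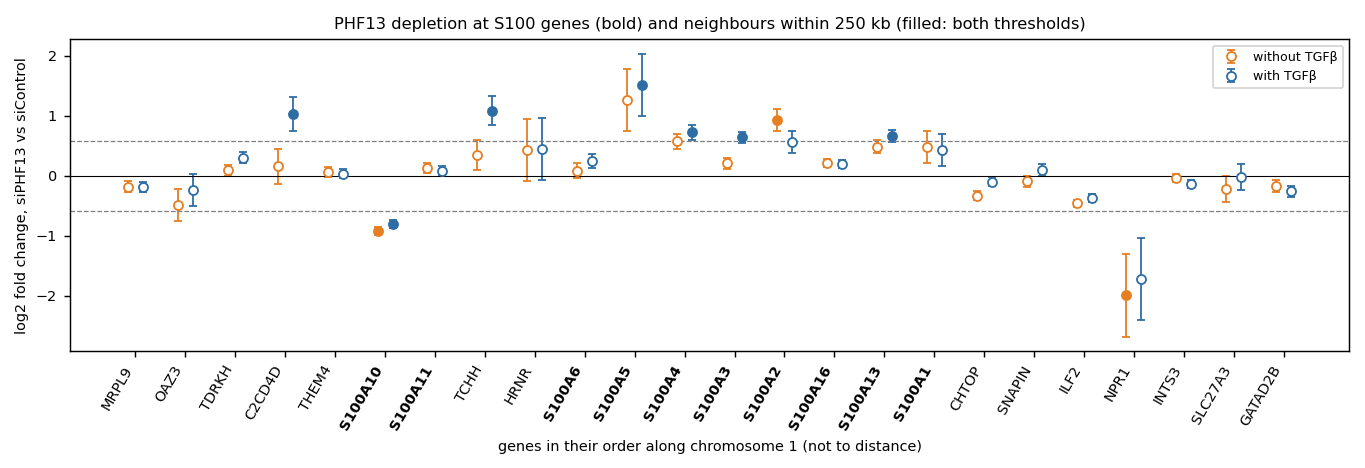
Log2 fold change on PHF13 depletion (vertical axis, bars: standard error) without and with TGFβ for the S100 genes (bold) and 14 neighbours within 250 kb, in their order along chromosome 1 and not to distance. Filled points passed both thresholds; *S100A10* is low between *THEM4* and *S100A11*, which were not called.

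Of 14 listed genes within 250 kb of a member, depletion called 0 higher and 1 lower without TGFβ (7.95% and 10.4% of all genes), and 2 higher and 0 lower with it (8.81% and 11.7%). The closest on either side of *S100A10*, *THEM4* and *S100A11*, were not called. *NPR1*, a natriuretic peptide receptor, fell (-1.99 ± 0.69, SE, n = 2; limma, adjusted p = 0.0278) from 27.5 and 25.2 normalized counts to 2.98 and 10.9, and lost the call without either siControl library or without siPHF13 replicate 1 (adjusted p from 0.110 to 0.204). *TCHH* rose on depletion with TGFβ present (adjusted p = 0.00230), as did *C2CD4D* (1.03 ± 0.29, adjusted p = 0.00871; 0.0594 without siPHF13_TGFβ replicate 2). By the limma adjusted p alone, *ILF2* was also lower without TGFβ (-0.46, adjusted p = 6.81e-05) and with it (-0.37, adjusted p = 0.000399). *CHTOP* was lower without TGFβ (-0.33, adjusted p = 0.00191). With TGFβ *TDRKH* was higher (0.31, adjusted p = 0.0157) and *GATAD2B* lower (-0.26, adjusted p = 0.0343). Over all genes this rule gave 23.1% higher and 24.3% lower without TGFβ, and 24.5% and 25.9% with it. The median of the neighbours was -0.13 without TGFβ and -0.06 with it.

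Known partners of S100 proteins were followed in a list of 27 genes, of which 25 were in the table. Depletion called 2 higher and 2 lower without TGFβ (7.95% and 10.4% of all genes), and 1 higher and 2 lower with it (8.81% and 11.7%), with list medians of 0.01 and -0.10. TGFβ called 4 higher and 0 lower in siControl cells (4.79% of all genes in either direction) and 2 higher and 0 lower in depleted cells (1.35%). By the adjusted p alone depletion gave 5 higher and 7 lower (23.1% and 24.3% of all genes), and with TGFβ 5 higher and 8 lower (24.5% and 25.9%).

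*ANXA2*, *AHNAK*, *MYH9*, *CACYBP* and *ANXA1* were picked from this list after their values had been seen. Each passed the adjusted p on depletion with TGFβ. Among those not picked, *ANXA6*, *ANXA11*, *SUGT1* and *PPFIBP1* did not pass it on depletion in either setting. *ANXA5* was higher on depletion (0.18 and, with TGFβ, 0.15), and *PLAUR* was lower (-0.36 and, with TGFβ, -0.28). *ANXA2*, the annexin that holds S100A10, was at 114722 and 114628 normalized counts in siControl, 81303 and 80354 in siPHF13, 112094 and 111531 in siControl_TGFβ, and 75755 and 82067 in siPHF13_TGFβ. All depleted libraries were below all controls, as for *S100A10*, but by less. The log2 fold change was -0.50 ± 0.06 (SE, n = 2) in both settings (limma, adjusted p = 2.03e-05 and, with TGFβ, 1.79e-05), under the fold threshold. *AHNAK*, a giant scaffold protein that binds the S100A10 and annexin A2 complex, was at -0.42 ± 0.10 (adjusted p = 0.00253) and -0.40 ± 0.10 (adjusted p = 0.00315). *KCNK3*, a potassium channel whose transport to the membrane involves S100A10, rose from 188 and 187 to 806 and 858 (2.14 ± 0.11, adjusted p = 1.22e-08) and, with TGFβ, from 570 and 492 to 1723 and 1512 (1.61 ± 0.11, adjusted p = 1.18e-07). TGFβ raised it too, by 1.49 in siControl and 0.96 in depleted cells.

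*MYH9*, the myosin heavy chain bound by S100A4, was lower on depletion while *S100A4* was higher, with log2 fold changes of -0.31 (limma, adjusted p = 0.000988) and -0.50 (adjusted p = 1.68e-05), both under the fold threshold. *CACYBP*, a partner of S100A6, was at 0.21 (adjusted p = 0.0264) and 0.38 (adjusted p = 0.000589). *ANXA1*, a partner of S100A11, was at -0.21 on depletion without TGFβ, where it missed the adjusted p (0.0508). On depletion with TGFβ it was at -0.28 (adjusted p = 0.0144). TGFβ gave -0.33 in siControl (adjusted p = 0.0180) and -0.39 in depleted cells (adjusted p = 0.0217).

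Of the cargo that leaves the cell with S100A13, *FGF1* rose with TGFβ in siControl (2.40 ± 0.59, SE, n = 2; limma, adjusted p = 0.0135), from 16.1 and 4.51 to 74.4 and 33.9 normalized counts. It missed the adjusted p without siControl replicate 2 (1.58, adjusted p = 0.158) and without siControl_TGFβ replicate 1 (1.85, adjusted p = 0.166). *IL1A* rose on depletion without TGFβ (1.81 ± 0.58, adjusted p = 0.0197), from 4.74 and 15.3 to 45.8 and 23.7. With TGFβ its value was -0.01 (adjusted p = 0.991), and the interaction was -1.82 (adjusted p = 0.506). The call was lost without siControl replicate 1 (1.06, adjusted p = 0.202) and without siPHF13 replicate 1 (1.35, adjusted p = 0.168), and both genes are low. *SYT1*, a part of the same release complex, fell on depletion without TGFβ (-1.02 ± 0.12, adjusted p = 1.61e-05) and with it (-1.17 ± 0.12, adjusted p = 4.22e-06), and rose with TGFβ in siControl (0.62, adjusted p = 0.00335), a call lost just short of the fold threshold without siControl replicate 1 and at 0.55 without siControl_TGFβ replicate 2. *TLR4*, a receptor of released S100 proteins, fell on depletion from 282 and 354 to 133 and 189 (-0.99 ± 0.19, adjusted p = 0.000856) and, with TGFβ, from 401 and 369 to 150 and 181 (-1.22 ± 0.19, adjusted p = 0.000142).

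Among 35 other EF-hand proteins, 33 were in the table. Depletion called 1 higher and 2 lower without TGFβ (7.95% and 10.4% of all genes) and 1 higher and 3 lower with it (8.81% and 11.7%). TGFβ called 0 in siControl and 0 in depleted cells (4.79% and 1.35% of all genes). By the adjusted p alone 4 were higher and 0 lower in siControl (9.21% and 6.67% of all genes). In depleted cells 0 passed it (3.07% of all genes). *CALB2* (calretinin) rose by 1.80 (limma, adjusted p = 0.000580) and, with TGFβ, by 1.89 (adjusted p = 0.000361). *GCA* (grancalcin) decreased by 1.57 (adjusted p = 1.93e-06) and, with TGFβ, by 1.38 (adjusted p = 5.76e-06).

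*CD68*, a lysosomal protein listed among the leukocyte markers, was higher in the depleted libraries, as were several S100 genes. The sum of the leukocyte markers, nearly all of it *CD68*, was 6161 to 7710 in the control libraries and 10577 to 13426 in the depleted ones. *CD14* was at 78.7 and 74.8 in siControl, 41.8 and 47.3 in siPHF13, 44.2 and 23.7 in siControl_TGFβ, and 25.9 and 52.9 in siPHF13_TGFβ, while *PTPRC*, *LYZ* and *CD3E* were not listed. The part of *CD68* in the S100 values was not tested. The fibroblast marker *COL1A1* was at 3345 and 3433 in siControl, 1887 and 1922 in siPHF13, 15334 and 16414 in siControl_TGFβ, and 4691 and 4909 in siPHF13_TGFβ, while *COL3A1*, *DCN*, *LUM* and *PDGFRA* were not listed. *COL1A1* was highest in siControl_TGFβ, where *S100A3* and *S100A4* were lowest. In siPHF13_TGFβ, however, *COL1A1*, *S100A3* and *S100A4* were all above their siControl levels. The part of *COL1A1* was not tested either.

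**Figure D4:**
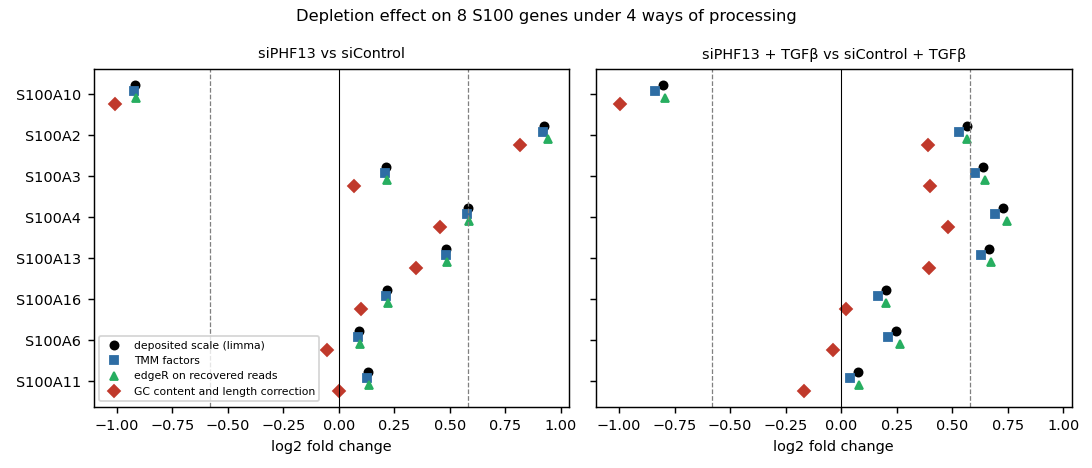
Log2 fold change (horizontal axis) on PHF13 depletion without (left) and with TGFβ (right) for the 8 S100 genes under 4 ways of processing, with dashed lines at 0.58 on either side of 0. The corrected values for GC content and length lie left of the others for all 8 genes, and *S100A10* is past the threshold in each.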

How the data were processed

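Poly(A) RNA of Panc-1 cells was sequenced in 8 libraries (paired-end, VAHTS mRNA-seq V3 kit). Per the submitters' notes, the authors trimmed reads with Trim Galore 0.4.1, mapped them to hg19 with STAR 2.7.0, counted exonic reads with HTSeq 0.12.4 and normalized the counts with DESeq2. The table used holds, for 13307 genes, a signal that the authors obtained by dividing the counts of each library by its size factor. The lowest mean of a gene is 9.82. Tables of the authors' own comparisons (log2 fold changes, p-values) and the pooled means were not used. The release of the gene annotation and the strand setting are not given in the sources used here.

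In each library 100% of the values were whole multiples of 1 step (within 1e-06 reads), which gave whole reads. In siPHF13 replicate 1 the step is 0.995, and a step this close to 1 could also come from rounding, which limits edgeR and DESeq2 here. Columns named NT were taken as siControl, the only group left without a column.

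One limma fit (3.58.1, R 4.3.3; trended prior variance, no block) of log2(normalized count + 1) over all 8 libraries gave 5 comparisons, and fold changes are on that scale. Adjusted p-values (Benjamini-Hochberg) cover 13307 genes. Thresholds followed the study (adjusted p under 0.05, absolute log2 fold change over 0.58). The procedure was tested on simulated data. Positions and transcript lengths are from GENCODE on GRCh37, matched for 12317 genes (92.6%), and promoters from RefSeq. Named genes are the 8 members, the other S100 genes of the table, called partners (at most 4 per comparison), called EF-hand genes (at most 2), called neighbours (at most 3 within 250 kb), *PHF13* and the 3 closest genes by correlation for each called member. A result for 1 of the called partners is not reported here. Partners that were not called were added after their values were seen. Members and lists were chosen with earlier results of these data known. Alternatives are a pseudocount of 5, a minimum of 10 in at least 2 libraries, TMM factors and quasi-likelihood tests (edgeR 4.0.16), DESeq2 1.42.0, a fit restricted to the libraries compared, a replicate block, a GC and length correction, both together, and each library left out.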

Additional observations from a re-analysis of the deposited data

How the results depend on the processing

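With GC content and length correction, alone or with the replicate block, 1 of the 8 genes was called on depletion with TGFβ, in place of 4. With each library left out in turn this count ranged from 1 (without siPHF13_TGFβ replicate 2) to 5 (without siControl_TGFβ replicate 2 or siPHF13_TGFβ replicate 1). The count over all genes for the interaction, 41, ranged from 12 (without siControl replicate 2) to 111 (without siPHF13_TGFβ replicate 1), and was 19, 22, 16 and 21 without siControl replicate 1, siPHF13 replicate 1, siControl_TGFβ replicate 1 and siControl_TGFβ replicate 2. TMM factors changed its split from 8 higher and 33 lower to 4 and 39. The other counts of called members and of all called genes stayed within 1.5 times. Of the members' log2 fold changes under the alternatives, 632 kept their direction and stayed called or stayed not called (some of these changed side of the adjusted p alone), 10 lost the call, 6 gained it and 24 changed sign.

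Values changed sign only in comparisons in which the gene had not been called. After the GC and length correction, with or without the block, *S100A6* on depletion was -0.054 and, with TGFβ, -0.035, *S100A11* on depletion with TGFβ was -0.17, and *S100A3* with TGFβ in depleted cells was -0.063. With libraries left out in turn, *S100A6* on depletion ranged from -0.013 to 0.19, *S100A2* with TGFβ from -0.14 to 0.31, *S100A13* with TGFβ from -0.21 to 0.038, and *S100A11* on depletion with TGFβ from -0.054 to 0.21. In depleted cells TGFβ gave -0.069 to 0.071 for *S100A3*, -0.39 to 0.070 for *S100A6* and -0.059 to 0.25 for *S100A13*. The interaction ranged from -0.085 to 0.38 for *S100A4*, from -0.073 to 0.39 for *S100A6*, from -0.18 to 0.078 for *S100A11* and from -0.11 to 0.074 for *S100A16*. The cause of these changes was not tested.

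Replicate numbers are shared between the groups. Correlations of the replicate differences over 11201 genes were 0.07, 0.01, 0.06, -0.15, -0.25 and 0.27 for the 6 pairs of groups. The value of 0.27 was that of siControl_TGFβ and siPHF13_TGFβ, and -0.25 that of siPHF13 and siPHF13_TGFβ. Whether libraries with the same number share a batch was not tested. The replicate block alone changed no call of the 8 genes: 2 were called on depletion, 4 on depletion with TGFβ and 0 in the other 3 comparisons, and the counts over all genes were 2438, 2711, 630, 171 and 39. With 2 libraries per group, each library left out leaves a single one, assumed to vary like the others.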
